A study of Homo sapiens with 20 samples.

Results

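The apolipoprotein genes *APOA1*, *APOA2*, *APOA4*, *APOB*, *APOC1*, *APOC3*, *APOE*, *APOH* and *APOM* were followed by RNA-seq through 2 stages of pancreatic differentiation with and without the m6A demethylase ALKBH5. The 9 genes were chosen by symbol, with no measured value in the rule but with earlier results of these data known. Counts of members called are therefore a description, set beside the share over all genes. Each gene was found once among the 60624 Ensembl identifiers of the hILO tables and the 60623 of the PP tables. All cells came from the human embryonic stem cell line MEL1, used as its INSGFP/W derivative with GFP placed at the insulin gene, as wild-type cells (WT) or as cells with *ALKBH5* disrupted by the nuclease Cpf1 and crRNAs against its first exon (A5-KO). The hILOs are islet-like organoids made from suspended aggregates of pancreatic progenitors, and 2 libraries were sequenced for each genotype (4 in all). The PPs are pancreatic progenitors collected before or after 1, 2 or 3 h of actinomycin D (Act D), a blocker of transcription, at 1 µg per ml, and 2 libraries were sequenced for each genotype and hour (16 in all). A single A5-KO line was named by the labels, which did not say whether paired libraries came from separate cultures, so *p*-values measured only the spread between these libraries.

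Apolipoproteins are the protein part of lipoprotein particles, which carry triglyceride and cholesterol through blood and lymph, and they are made chiefly by hepatocytes and enterocytes. APOB is the large scaffold on which chylomicrons and very low density lipoproteins are built, APOA1 and APOA2 are the main proteins of high density lipoproteins, and the small exchangeable members APOC1, APOC3, APOE and APOA4 move between particles and tune lipases and receptor uptake. APOM carries sphingosine 1-phosphate on high density lipoproteins, and APOH (β2-glycoprotein I) is a plasma protein that binds anionic phospholipid. ALKBH5 removes m6A, a methyl mark on adenosine of RNA that is often found in the sequence GGACT.

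Genome positions were taken from GENCODE release 44 on GRCh38. *APOA4* (chr11:116820700-116823304, minus strand), *APOC3* (chr11:116829706-116833072, plus strand) and *APOA1* (chr11:116835751-116837622, minus strand) lay within 16923 bases of each other, and *APOE* (chr19:44905791-44909393) and *APOC1* (chr19:44914247-44919349) lay within 13559 bases on the plus strand. The other members were single: *APOA2* (chr1:161222292-161223631, minus strand), *APOB* (chr2:21001429-21044073, minus strand), *APOH* (chr17:66212033-66256525, minus strand) and *APOM* (chr6:31652416-31658210, plus strand). Some exons were shared with other annotated genes. A same-strand gene of uncertain status, ENSG00000280087, covered 40.7% of the exon length of *APOC1* and was itself listed at 78.7 to 104 TPM in hILOs. Opposite-strand genes covered 43.2% of *APOA4* and 11.2% of *APOA1* (*APOA1-AS*), and part of *APOM* (*BAG6*). Whether counting used strand was not stated, so reads in these stretches could not be assigned with certainty, and *APOC1* also has a pseudogene copy, *APOC1P1*.

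The 250 bases before the RefSeq transcription start (GRCh38.p14) are shown for the 4 members called higher or lower in A5-KO hILOs, by the rule given below. Capitals mark matches on either strand to TGTTTAC, a forkhead-type sequence, or to GTTAAT, a half-site of the HNF1 type.
*APOA2* (chr1:161223629-161223878, minus strand, higher in A5-KO hILOs): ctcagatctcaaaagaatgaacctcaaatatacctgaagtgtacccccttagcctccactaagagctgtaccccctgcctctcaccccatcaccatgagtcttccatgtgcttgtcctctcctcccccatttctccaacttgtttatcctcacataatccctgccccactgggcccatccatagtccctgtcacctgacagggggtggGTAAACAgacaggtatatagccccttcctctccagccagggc
*APOM* (chr6:31655644-31655893, plus strand, higher in A5-KO hILOs): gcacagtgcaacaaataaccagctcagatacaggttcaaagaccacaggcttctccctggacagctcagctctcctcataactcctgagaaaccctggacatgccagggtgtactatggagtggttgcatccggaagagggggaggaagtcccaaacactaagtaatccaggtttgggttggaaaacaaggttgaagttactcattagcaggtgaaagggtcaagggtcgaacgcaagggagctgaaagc
*APOH* (chr17:66229416-66229665, minus strand, higher in A5-KO hILOs): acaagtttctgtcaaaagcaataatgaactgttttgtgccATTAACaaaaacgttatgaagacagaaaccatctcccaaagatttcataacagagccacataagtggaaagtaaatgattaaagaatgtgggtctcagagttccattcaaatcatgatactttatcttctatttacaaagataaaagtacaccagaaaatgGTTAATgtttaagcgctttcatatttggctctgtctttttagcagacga
*APOA4* (chr11:116823305-116823554, minus strand, lower in A5-KO hILOs): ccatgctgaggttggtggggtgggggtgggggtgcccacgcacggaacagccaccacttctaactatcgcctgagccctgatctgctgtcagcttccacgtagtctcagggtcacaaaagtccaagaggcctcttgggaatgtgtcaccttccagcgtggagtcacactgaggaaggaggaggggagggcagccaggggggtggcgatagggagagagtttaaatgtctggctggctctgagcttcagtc
The table of start sites held 6 of the 9 members and lacked *APOA1*, *APOB* and *APOC3*. Both strands of each window were also searched for AGGTCA (a nuclear receptor half-site), CAAAGTCCA (a site of the HNF4 type) and TATAAA, with no match in these 4 windows. Of all 35116 windows of this length, 2.98% held TGTTTAC, 6.23% GTTAAT, 12.1% AGGTCA, 0.325% CAAAGTCCA and 10.7% TATAAA. The match in *APOA2* lay 42 to 36 bases before the start, and those in *APOH* 210 to 205 and 49 to 44 bases before it. No 2 matches overlapped.

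The sequence GGACT was counted in the canonical transcript of each member because ALKBH5 acts on m6A, although m6A itself was not analysed here. *APOA1* (899 nt), *APOA2* (474 nt), *APOC3* (535 nt) and *APOE* (1166 nt) held none. At least 1 was held by 87.8% of the 20046 coding transcripts searched, a share not matched for length, and these 4 were shorter than the median. *APOM* held 2 in 761 nt (2.63 per kb), *APOC1* 1 in 514 nt (1.95 per kb), *APOH* 2 in 1174 nt (1.70 per kb), *APOA4* 2 in 1471 nt (1.36 per kb) and *APOB* 15 in 14121 nt (1.06 per kb), against a median of 0.92 per kb over all coding transcripts, whose median length was 2885 nt. The sites in the 4 shorter transcripts are shown with up to 10 bases on each side and GGACT in capitals.
*APOA4* (chr11:116822735-116822739, exon 2, coding sequence): cggtgatgtgGGACTacttcagcca
*APOA4* (chr11:116821775-116821779, exon 3, coding sequence): gcctggccaaGGACTcggagaaact
*APOC1* (chr19:44919296-44919300, exon 4, 3′ UTR): cctgtgctgaGGACTccctccatgt
*APOH* (chr17:66228049-66228053, exon 2, coding sequence): ccctctcacaGGACTgtggcccatc
*APOH* (chr17:66220573-66220577, exon 5, coding sequence): catggaaattGGACTaaattaccag
*APOM* (chr6:31655899-31655903, exon 1, 5′ UTR): agagtGGACTgagcagccag
*APOM* (chr6:31657686-31657690, exon 5, coding sequence): cttcctgcctGGACTccaaagcctt
The most changed member in hILOs, *APOA2*, thus held no GGACT. The next, *APOM*, was denser in it than 96.4% of coding transcripts, a rank that rested on 2 sites in 761 nt and was not matched for length. GGACT is a form of the wider m6A motif DRACH that the paper gives, and other forms were not counted.

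The knockout was visible in every library. *ALKBH5* stood at 78.8 and 81.9 TPM (WT) against 4.16 and 3.42 TPM (A5-KO), and in PPs at 0 h it stood at 149 and 172 CPM against 19.1 and 18.8 CPM. The hILOs held the islet hormone *INS* at 13033 and 12978 TPM (WT) against 7605 and 7606 TPM (A5-KO). The PPs at 0 h held the progenitor factors *PDX1* (153 to 200 CPM), *NKX6-1* (241 to 367 CPM) and *SOX9* (227 to 322 CPM), whereas *PTF1A* stayed under 0.5 CPM and *INS* was at 0 in all 4 libraries. Read totals recovered from the CPM ran from 30516384 to 35206514 per PP library. TPM keeps no depth, so that of the hILO libraries is unknown.

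In hILOs, the question was whether loss of ALKBH5 moved the apolipoprotein mRNAs of the organoids. The genes were abundant there: together the 9 members took 1.68% and 1.69% of the listed TPM in the WT libraries and 2.01% and 1.96% in the A5-KO libraries. *APOA2*, *APOM* and *APOH* were higher in A5-KO and *APOA4* was lower, so 3 of 9 members were called higher and 1 lower, where 2.70% and 4.09% of the 17300 genes tested were. A call required a Benjamini-Hochberg adjusted *p* below 0.05 over all genes tested in limma and a change over 1.5-fold on the log2(TPM + 1) scale. Both A5-KO libraries lay outside both WT libraries for 7 of the 9 members, against 61.4% of all genes tested. The median difference was 0.16 over the members and -0.06 over all genes tested. In bulk RNA, fewer cells of a type and less RNA per cell cannot be told apart.

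*APOA2*, a structural protein of high density lipoproteins, changed most. It stood at 839 and 836 TPM (WT) against 3793 and 3810.3 TPM (A5-KO). The groups did not overlap, and the ratio of the means was 4.54, a log2 difference of 2.18 (SE 0.02, limma adjusted *p* = 0.00053). *APOM*, the sphingosine 1-phosphate carrier, was at 119 and 113 TPM (WT) against 330 and 322 TPM (A5-KO). Its means differed 2.81-fold, with a log2 difference of 1.48 (SE 0.04, limma adjusted *p* = 0.0021). *APOH*, encoding the phospholipid-binding β2-glycoprotein I, was the least abundant member, at 29.5 and 27.4 TPM (WT) against 51.3 and 51.5 TPM (A5-KO). Its means differed 1.81-fold, with a log2 difference of 0.83 (SE 0.07, limma adjusted *p* = 0.0082). With any 1 of the 4 libraries left out, the adjusted *p* of *APOH* lay between 0.051 and 0.061, past the limit, and its difference between 0.78 and 0.88.

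*APOA4*, an intestinal apolipoprotein of chylomicrons, went the other way. It was at 3670 and 3692 TPM (WT) against 2416 and 2350.5 TPM (A5-KO), 0.648 times the WT mean. The log2 difference was -0.63 (SE 0.03, limma adjusted *p* = 0.0028), close to the 1.5-fold limit, and it fell short of that limit under median-of-ratios scaling (-0.56) and quantile normalization (-0.51). An opposite-strand gene over its exons, ENSG00000285513, was listed at 5.14 and 3.83 TPM (WT) against 36.2 and 5.56 TPM (A5-KO).

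The neighbours of *APOA4* on chromosome 11 did not pass the test. *APOA1*, the main protein of high density lipoproteins, was at 3029 and 3141 TPM (WT) against 3155 and 2997 TPM (A5-KO). The libraries of the 2 genotypes overlapped, with a difference of -0.004 (SE 0.04, limma adjusted *p* = 0.95) whose sign turned under other scalings (0.06 and 0.13). *APOC3*, an inhibitor of triglyceride clearance, was at 622 and 642 TPM (WT) against 661 and 639 TPM (A5-KO), again overlapping (difference 0.04, SE 0.04, limma adjusted *p* = 0.50).

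On chromosome 19, *APOE*, the ligand for receptor uptake of remnants, was at 4999 and 4915 TPM (WT) against 4779 and 4456 TPM (A5-KO) (difference -0.10, SE 0.04, limma adjusted *p* = 0.19). *APOC1*, an inhibitor of that uptake, was at 2094 and 2074 TPM (WT) against 2670.4 and 2584 TPM (A5-KO). Its groups did not overlap and its adjusted *p* was 0.0092 by limma, but the difference of 0.33 (SE 0.03) was under the fold limit, so it was not called. *APOB* was at 173 and 176 TPM (WT) against 199 and 191 TPM (A5-KO) (difference 0.16, SE 0.04, limma adjusted *p* = 0.078).

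**Figure D1:**
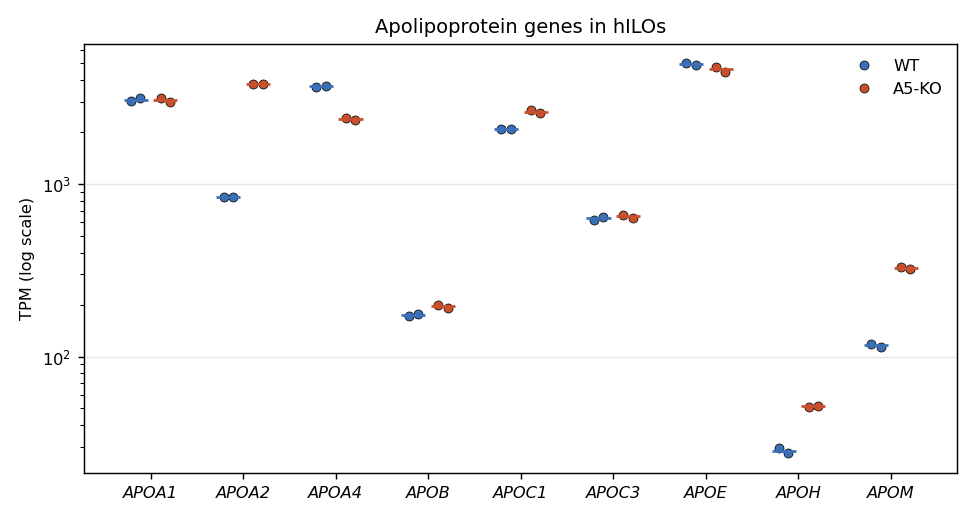
TPM (log scale) of each apolipoprotein gene in the 2 WT and 2 A5-KO hILO libraries, with points for libraries and bars for means. *APOA2* rose from 836 to 839 TPM in WT to 3793 to 3810.3 TPM in A5-KO, while *APOA1*, *APOC3* and *APOE* stayed within 1.1-fold of WT.

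These changes reordered the family. TPM is divided by length, so levels may be compared between genes. In WT hILOs the order of mean TPM was *APOE* (4957), *APOA4* (3681), *APOA1* (3085), *APOC1* (2084), *APOA2* (837), *APOC3* (632), *APOB* (174), *APOM* (116) and *APOH* (28.5). In A5-KO hILOs it was *APOE* (4617), *APOA2* (3802), *APOA1* (3076), *APOC1* (2627), *APOA4* (2383), *APOC3* (650), *APOM* (326), *APOB* (195) and *APOH* (51.4). No neighbours in either order had overlapping libraries. *APOA2* and *APOA4* traded the second and the fifth place, and *APOM* passed *APOB*. Among all identifiers, *APOA2* moved from place 145 to 11 and *APOE* from 6 to 8.

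In PPs before Act D, 7 of the 9 members had a mean of at least 1 CPM and were tested. *APOB* was higher in A5-KO, so 1 member was called higher and 0 lower, where 1.57% and 1.13% of the 13911 genes tested were. Both A5-KO libraries lay outside both WT libraries for 6 of the 7, against 49.8% of all genes tested. *APOH* had 0 reads in 15 of the 16 PP libraries and 2 reads in the other, where 0 reads allow up to 0.0852 to 0.0983 CPM by counting error alone. *APOM* had at most 12 reads, or 0.35 CPM. *APOM* and *APOH*, which were higher in A5-KO hILOs, were thus near or under the floor at this stage.

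*APOB*, the scaffold of chylomicrons and very low density lipoproteins, was at 75.4 and 74.9 CPM in WT and 124 and 107 CPM in A5-KO. The groups did not overlap and the means differed 1.54-fold, a log2 difference of 0.61 (SE 0.09, limma adjusted *p* = 0.0070). That size lay at the fold limit: median-of-ratios scaling (0.57), edgeR (0.58) and DESeq2 (0.58) on the recovered reads, and the fit without the first A5-KO library (0.50) left it uncalled, with adjusted *p* still below 0.05. *APOA1* was at 124 and 127 CPM in WT and 160 and 188 CPM in A5-KO, 1.38-fold by the means (difference 0.46, SE 0.09, limma adjusted *p* = 0.023), which was past the *p* limit and under the fold limit.

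Low-level members lay on the same side. *APOA4* was at 2.84 and 3.44 CPM in WT and 4.45 and 4.57 CPM in A5-KO, and *APOC3* at 3.47 and 3.94 CPM against 5.41 and 4.57 CPM. Neither passed the test, with limma adjusted *p* = 0.23 and 0.32. *APOE* and *APOC1* lay on the other side. *APOE* was at 1206 and 1373 CPM in WT and 779 and 1134 CPM in A5-KO (difference -0.45, SE 0.14, limma adjusted *p* = 0.13). Its first A5-KO library stood apart from the second, and without the second the difference was -0.72 and called (limma adjusted *p* = 0.00063), while without the first it was -0.18 (limma adjusted *p* = 0.29). Each of these fits left 1 A5-KO library, which was assumed to vary like the WT pair. *APOC1* was at 72.5 and 83.2 CPM in WT and 58.4 and 69.4 CPM in A5-KO (difference -0.28, SE 0.11, limma adjusted *p* = 0.20). *APOA2*, the most changed member in hILOs, overlapped here, at 63.1 and 74.4 CPM in WT and 57.3 and 71.4 CPM in A5-KO (difference -0.10, SE 0.12, limma adjusted *p* = 0.72).

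**Figure D2:**
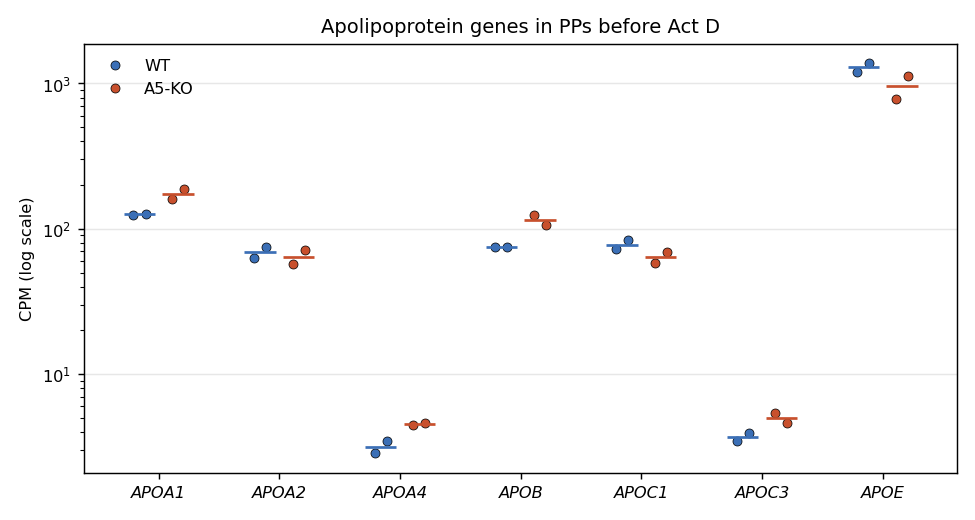
CPM (log scale) of the 7 tested apolipoprotein genes in the 2 WT and 2 A5-KO PP libraries at 0 h, with points for libraries and bars for means. *APOB* lay at 74.9 to 75.4 CPM in WT and 107 to 124 CPM in A5-KO, and *APOE* was lower in both A5-KO libraries, which lay far apart.

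CPM is not divided by length, so reads per kb of exon, rescaled to the same total over all genes in every library as TPM is, were computed to order the genes in PPs. In WT at 0 h the order was *APOE* (1906), *APOA1* (365), *APOA2* (231), *APOC1* (210), *APOB* (16.1), *APOC3* (13.9) and *APOA4* (6.79), with overlapping libraries only for *APOA2* and *APOC1*. The order of the means was the same in A5-KO, where *APOA1* reached 492 and *APOE* 1377. *APOA4*, the second member of WT hILOs, was the seventh of PPs. The stages were deposited in different units and made with different RNA kits, and they were not tested against each other.

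Act D stops new transcription, so the hours after it follow the mRNA already made. CPM is a share of the library, and a gene that is lost more slowly than the rest rises in CPM. After 1 h, *APOA1* and *APOA4* were higher in A5-KO (2 of 7 members, where 2.94% of 13620 genes were called higher), and after 2 h *APOA4* was (1 of 7, where 2.66% were). After 3 h 0 of 7 members were called, where 18.9% of genes were, 2411 of these 2568 lower. At that hour 2 members had an unadjusted *p* below 0.05, as had 5595 of the 13620 genes. On the recovered reads edgeR and DESeq2 each called 1 member, where they called 396 and 421 of all genes higher and 2062 and 2053 lower. The median over all genes tested was -0.11 at 2 h and -0.13 at 3 h, and median-of-ratios scaling moved it to -0.02 and 0.004. Under that scaling calls in the higher direction were 54.5% of all calls at 2 h rather than 38.6%, and 18.0% rather than 6.11% at 3 h. Quantile normalization gave 63.8% and 39.0%, and 60.5% rather than 71.9% at 1 h.

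*APOA4* in A5-KO went from 4.45 and 4.57 CPM at 0 h to 6.30 and 6.92 CPM at 1 h and 11.9 and 10.8 CPM at 2 h, and stood at 3.12 and 3.57 CPM at 3 h. In WT it was at 2.84 and 3.44, then 1.37 and 2.57, then 2.44 and 3.56, then 3.34 and 4.17 CPM. The genotypes overlapped only at 3 h. The differences were 1.39 at 1 h (SE 0.21, limma adjusted *p* = 0.00059), 1.64 at 2 h (SE 0.21, limma adjusted *p* = 0.000105) and -0.13 at 3 h (SE 0.21, limma adjusted *p* = 0.69). These values rested on 48 to 409 reads per library. The effect at 2 h exceeded that at 0 h by 1.22 (SE 0.30), with a limma adjusted *p* of 0.061 and a range from 0.0092 to 0.28 over the alternatives.

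*APOA1* was higher in A5-KO at every hour with no overlap. In WT it went from 124 and 127 CPM at 0 h to 135 and 139 CPM at 1 h, 153 and 183 CPM at 2 h and 172 and 160.4 CPM at 3 h. In A5-KO it went from 160 and 188 CPM to 229 and 276 CPM, 238 and 234 CPM, and 243 and 227 CPM. The difference was 0.87 at 1 h (SE 0.10, limma adjusted *p* = 5.6e-05). At 2 h and 3 h it was 0.49 and 0.50 (SE 0.10 each), with limma adjusted *p* of 0.0068 and 0.0018, under the fold limit. Median-of-ratios scaling gave 0.59 and 0.65, past it, and edgeR (0.59 and 0.64) and DESeq2 (0.59 and 0.65) did too.

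*APOB* kept both A5-KO libraries above both WT libraries at each hour, at 77.9 to 124 CPM against 61.0 to 84.0 CPM over all hours. Its differences at 1, 2 and 3 h were 0.40, 0.44 and 0.37 (SE 0.10 each), with limma adjusted *p* of 0.030, 0.014 and 0.013, all under the fold limit. *APOC3* ran from 3.47 to 5.68 CPM in WT and from 4.49 to 8.23 CPM in A5-KO, and no hour passed the test. *APOA2* stayed between 63.1 and 81.1 CPM in WT and between 57.3 and 87.4 CPM in A5-KO, and the genotypes differed by at most 0.10 on the log2 scale at any hour.

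**Figure D3:**
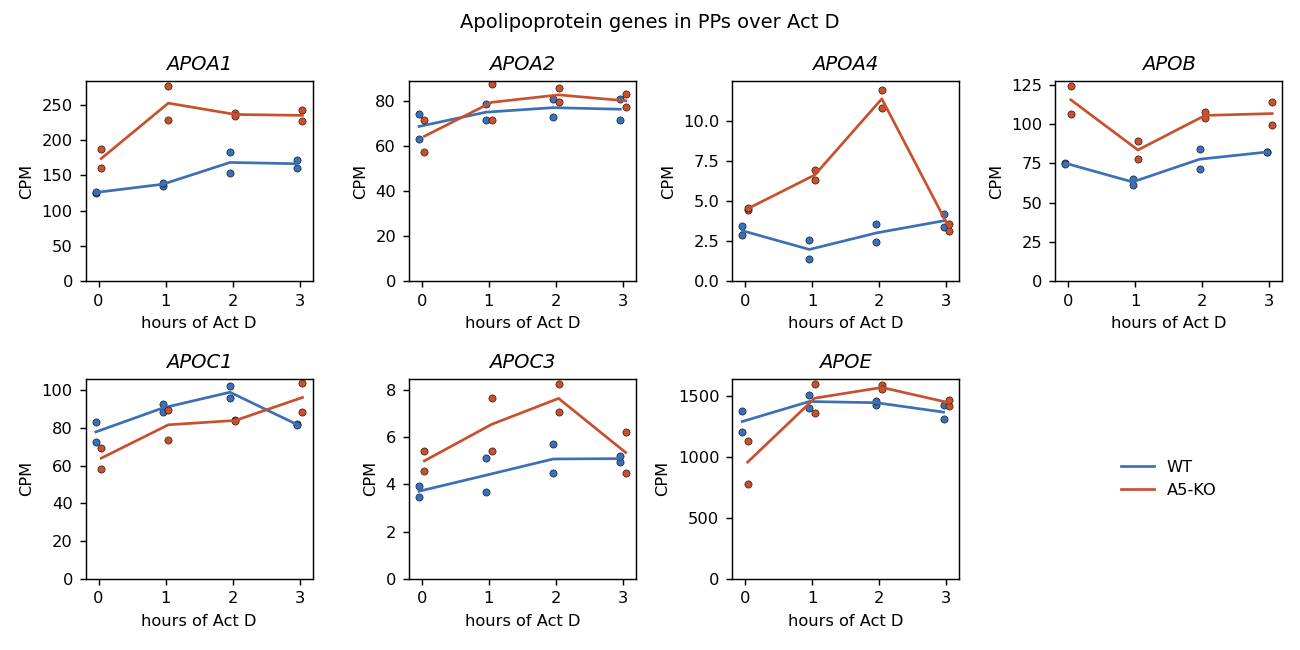
CPM of the 7 tested apolipoprotein genes over hours of Act D in PPs, with a point for each library and lines through the means of 2. *APOA4* in A5-KO reached 10.8 and 11.9 CPM at 2 h and came back to 3.12 and 3.57 CPM at 3 h, and *APOA1* was higher in A5-KO at all hours.

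Slopes over the 3 h, fitted on log2(CPM + 0.1) to the same 16 libraries, gave the rate at which each gene's share moved. In WT 0 of 7 members were called, where 0.242% of genes were. Over all genes, 18 slopes were called higher and 15 lower in WT, and 1013 and 5054 in A5-KO. Of the called slopes, 54.5% were thus higher in WT and 16.7% in A5-KO. These shares were 69.2% and 46.3% under median-of-ratios scaling and 82.4% and 57.4% under quantile normalization. All 7 member slopes in WT were positive, as were 5057 of the 13620 over all genes. The largest were in *APOC3* (0.16 per hour, SE 0.09) and *APOA1* (0.15 per hour, SE 0.05). *APOA1* alone had an unadjusted *p* below 0.05, as had 1819 of all genes in WT. In A5-KO *APOE* (0.19 per hour, SE 0.06, limma adjusted *p* = 0.014) and *APOC1* (0.18 per hour, SE 0.05, limma adjusted *p* = 0.0048) rose, 2 of 7 members where 7.44% of genes were called higher. Both calls rested on the first A5-KO library at 0 h, without which the slopes were 0.08 and 0.14 and 0 members were called (limma adjusted *p* = 0.18 and 0.051). *APOE* in A5-KO went from 779 and 1134 CPM at 0 h to 1363 and 1600 CPM at 1 h, 1585 and 1554 CPM at 2 h and 1419 and 1469.6 CPM at 3 h. In WT it stayed between 1206 and 1507 CPM.

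The slopes of the genotypes were not called different for any member, where 2.67% of genes were. That share rested on the setting, since 9 genes higher and 355 lower became 0 and 0 in the fit blocked on replicate number and in that without a filter, and 290 and 2739 from 0 and 3 h only. Of the 13620 genes, 3047 had an unadjusted *p* below 0.05. Among the members only *APOC1* did, with a difference of 0.15 per hour (SE 0.07, limma adjusted *p* = 0.20), and *APOE* differed by 0.17 per hour (SE 0.08, limma adjusted *p* = 0.25). The effect of the knockout at each later hour was also compared with that at 0 h, in a test added after the data were seen. At 1 h and 2 h 0 members were called, where 0.235% and 1.09% of genes were. An unadjusted *p* below 0.05 was reached by 3 and 2 members, and by 1225 and 2485 of the 13620 genes. At 3 h *APOC1* was called, where 18.4% of genes were (9.36% of them higher, against 34.7% under median-of-ratios scaling and 35.4% under quantile normalization): its difference moved from -0.28 at 0 h to 0.23 at 3 h, a change of 0.51 (SE 0.16, limma adjusted *p* = 0.035). *APOC1* at 3 h was at 82.0 and 81.5 CPM in WT and at 88.4 and 104 CPM in A5-KO.

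**Figure D4:**
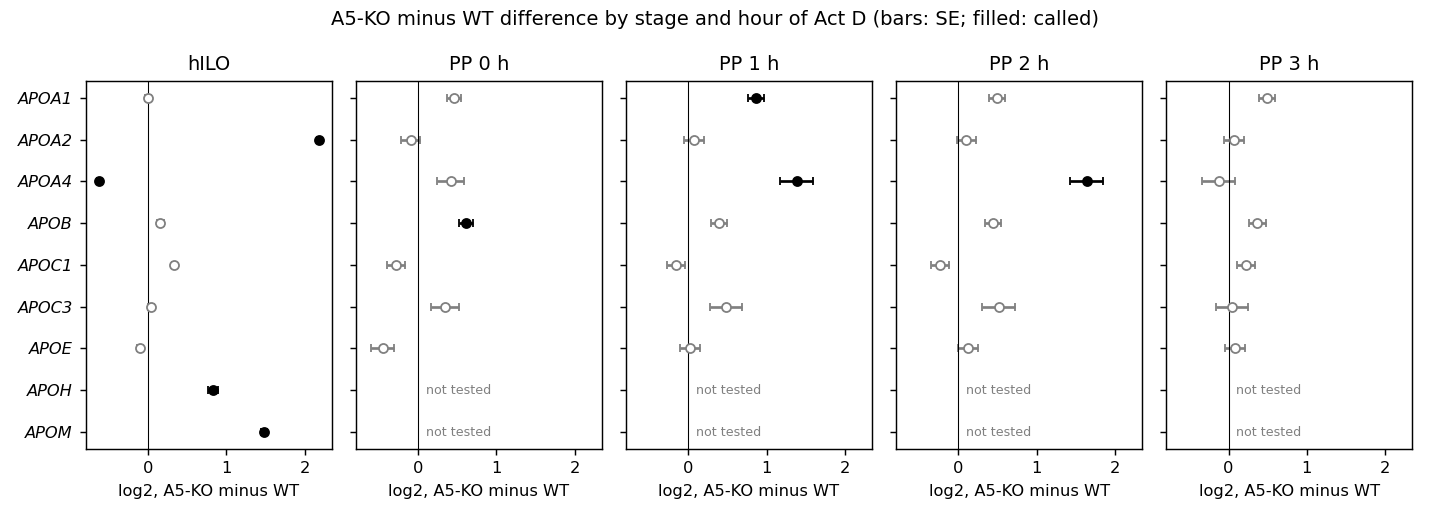
Log2 difference between A5-KO and WT for each apolipoprotein gene in hILOs and at each hour of Act D in PPs, with bars for the SE and filled points for calls. *APOA2* stood at 2.18 in hILOs and between -0.10 and 0.10 in PPs, and *APOA4* stood at -0.63 in hILOs and reached 1.64 in PPs at 2 h.

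Genes that act with apolipoproteins were counted from fixed lists. For reference, 5344 of all 17300 genes tested in hILOs and 2684 of 13911 in PPs at 0 h had an unadjusted limma *p* below 0.05. Of other apolipoproteins, 10 of 16 were tested in hILOs and 1 rose: *CLU*, a secreted chaperone, from 458 and 432 TPM to 955 and 915 TPM (difference 1.07, SE 0.04, limma adjusted *p* = 0.0028). In PPs 5 were tested and 0 passed (1 at an unadjusted *p* below 0.05), and *CLU* was at 496 and 512 CPM in WT and 382 and 423 CPM in A5-KO. Of 12 genes of lipoprotein assembly, 11 had a positive difference in hILOs, as did 7283 of all 17300 genes, and 1 passed, where 6.79% of all genes did. This was *CIDEB*, a gene that helps to lipidate very low density lipoproteins, which rose from 89.0 and 90.4 TPM to 152 and 160.2 TPM (difference 0.79, SE 0.05, limma adjusted *p* = 0.0053). The median of that list was 0.27, against -0.06 over all genes. In PPs 10 were tested and 0 passed (3 at an unadjusted *p* below 0.05), and *CIDEB* was at 0 in all 4 libraries at 0 h.

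Of the plasma lipases, remodelling proteins and inhibitors, 8 of 13 were tested in hILOs and 3 passed, of which 2 that fell are given here. *ANGPTL4*, an inhibitor of lipoprotein lipase, fell from 45.9 and 43.2 TPM to 21.4 and 19.0 TPM (difference -1.10, SE 0.09). *PLTP*, the phospholipid transfer protein, fell from 56.5 and 56.8 TPM to 26.7 and 30.5 TPM (difference -0.96, SE 0.08). In PPs 1 of 7 passed, again *ANGPTL4*, at 8.90 and 7.65 CPM in WT and 4.30 and 3.28 CPM in A5-KO (difference -0.96, SE 0.18, limma adjusted *p* = 0.018). Of receptors and transporters, 12 were tested in hILOs and 13 in PPs, and 0 passed at either stage, with 5 and 4 at an unadjusted *p* below 0.05. Other settings called 0 to 1 of them in hILOs and 0 to 2 in PPs, with 2 by edgeR and 2 by DESeq2.

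Of 24 transcription factors and nuclear receptors known to regulate hepatic and intestinal lipid genes, all were tested. In hILOs 1 passed: *RORA*, a nuclear receptor, fell from 2.09 and 2.87 TPM to 0.20 and 0.10 TPM (difference -1.59, SE 0.24, limma adjusted *p* = 0.028), a call that was lost with the replicate number as a block (limma adjusted *p* = 0.065). *HNF4A*, the hepatocyte nuclear factor that drives many apolipoprotein promoters, was at 60.6 and 72.5 TPM (WT) against 80.3 and 72.4 TPM (A5-KO), overlapping. In PPs it was at 103 and 89.2 CPM in WT and 138 and 126 CPM in A5-KO (difference 0.46, SE 0.09, limma adjusted *p* = 0.029), under the fold limit. In PPs *FOXA1*, a forkhead factor of foregut endoderm, rose from 21.0 and 13.9 CPM to 49.4 and 40.1 CPM (difference 1.33, SE 0.18). *ONECUT1*, a factor of liver and pancreas progenitors, fell from 18.7 and 17.1 CPM to 7.23 and 5.33 CPM (difference -1.39, SE 0.17). *NR0B2*, a corepressor of bile acid signalling, fell from 38.3 and 30.2 CPM to 17.3 CPM in both libraries (difference -0.94, SE 0.13, limma adjusted *p* = 0.0052).

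Markers of other cell types moved with the knockout. In hILOs 13 of 14 hepatocyte markers were tested, of which 4 rose and 4 fell, and their summed level went from 18022 to 18198 TPM in WT to 30041 to 30199.8 TPM in A5-KO. The plasma carriers *TF* (difference 2.07, SE 0.15) and *TTR* (1.31, SE 0.02) and the albumin gene *ALB* (1.01, SE 0.03) rose, while the fibrinogen chains *FGG* (-1.06, SE 0.05), *FGB* (-0.89, SE 0.03) and *FGA* (-0.68, SE 0.05) and the plasma protein *AHSG* (-0.76, SE 0.12) fell. Most of the gain of the sum lay in *TTR*, which went from 7527 and 7550 TPM to 18674 and 18749 TPM. In PPs at 0 h 6 of 10 tested rose and 0 fell, with *TTR* (2.19, SE 0.13), *FGB* (1.84, SE 0.18), *ALB* (1.58, SE 0.15) and *FGG* (1.54, SE 0.22) leading, and the sum went from 1025 to 1076 CPM to 1802 to 1812 CPM. The gain of that sum lay in the fetal carrier *AFP*, which rose from 563 and 551 CPM to 1343 and 1294 CPM, while the protease inhibitor *SERPINA1* was at 311 and 371 CPM in WT and 200.3 and 268 CPM in A5-KO (difference -0.55, SE 0.13, limma adjusted *p* = 0.0496, under the fold limit). Enterocyte markers summed to 1230 to 1231 TPM in WT hILOs and 1633 to 1682 TPM in A5-KO hILOs, where 1 of 12 passed, the brush border disaccharidase *SI* (difference 1.53, SE 0.06). In PPs they summed to 611 to 642 CPM in WT and 827 to 853 CPM in A5-KO, where 1 of 11 passed, the aminopeptidase *ANPEP* (0.82, SE 0.13). *KRT20* was at 0 in PPs at 0 h. The part of hepatocyte-like or enterocyte-like cells in the apolipoprotein differences was not tested.

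Macrophages also make *APOE* and *APOC1*. Of 9 macrophage markers, *C1QB* and *C1QC* were at 0 and *PTPRC* at or under 0.0434 in the hILO libraries and in the PP libraries at 0 h. *CSF1R* and *TYROBP* stayed under 0.5 TPM in WT hILOs but each reached at least 0.5 TPM in an A5-KO hILO library. Of the 9 markers, 2 were tested in hILOs and 0 passed, both at an unadjusted *p* below 0.05. These were *CD68*, at 88.9 and 89.8 TPM (WT) against 103 and 111 TPM (A5-KO), and *AIF1*, at 28.1 and 24.4 TPM (WT) against 11.4 and 18.5 TPM (A5-KO). The sum over the list was 115 to 118 TPM in WT and 116 to 130.2 TPM in A5-KO, and the part of these cells in the levels of *APOE* and *APOC1* was not tested. Mesenchyme markers summed to 6.31 to 10.9 TPM in WT hILOs and 24.7 to 30.4 TPM in A5-KO hILOs (2 of 3 tested rose, *COL1A2* by 1.85, SE 0.35, and *LUM*, from 0.951 and 0.854 TPM to 4.71 and 4.05 TPM). In PPs they went from 108 to 116 CPM to 154 to 166 CPM, where *COL3A1* (1.38, SE 0.11), *LUM* (1.12, SE 0.21) and *COL1A1* (0.86, SE 0.15) rose. *DCN* and *THY1* stayed under 0.5 in hILOs and in PPs at 0 h, and the part of these cells was not tested. Of 6 progenitor markers tested in hILOs 0 passed (4 at an unadjusted *p* below 0.05), and in PPs 1 of 6 did, *ONECUT1*.

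Islet endocrine markers summed to 34508 to 36854 TPM in WT hILOs and 26461 to 27685 TPM in A5-KO hILOs, where 4 of 9 fell and 1 rose. The 4 that fell were the hormone genes *PPY* (-2.66, SE 0.22), *SST* (-1.79, SE 0.04), *GCG* and *INS* (-0.77, SE 0.02). Since TPM is a share, their fall and the rise of other genes were not independent. In PPs 1 endocrine marker was tested and did not pass.

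**Figure D5:**
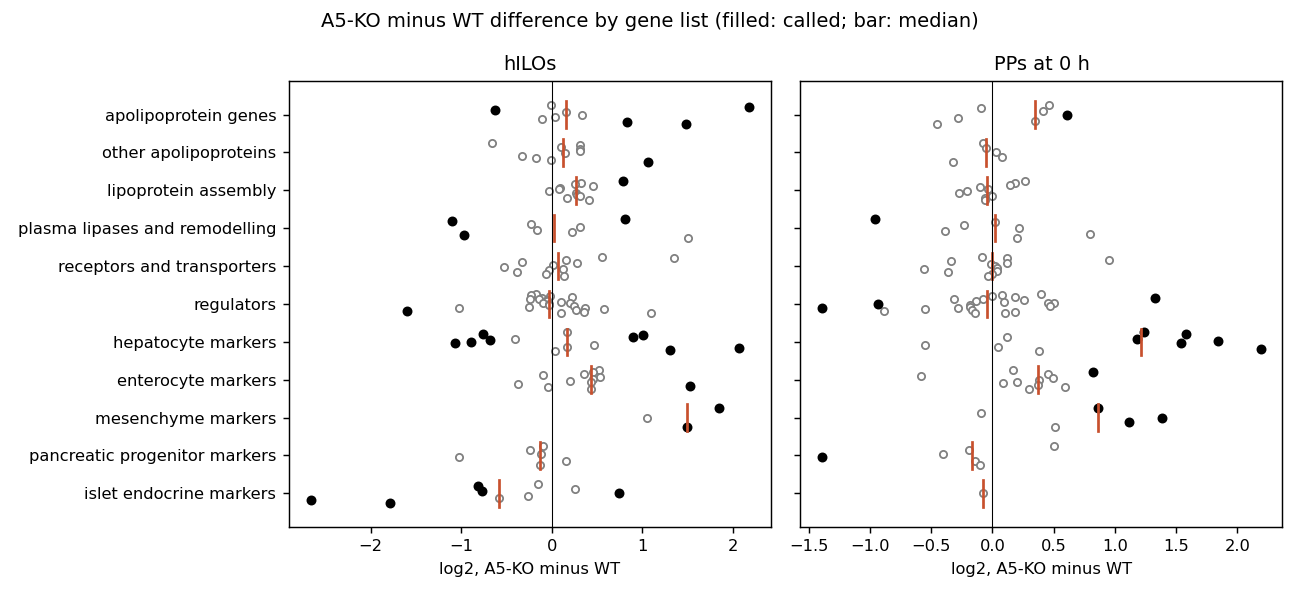
Log2 difference between A5-KO and WT for each tested gene of the lists, in hILOs and in PPs at 0 h, with filled points for calls and a bar for the median of each list. Hepatocyte markers were called in both directions in hILOs (4 higher, 4 lower) and in 1 direction in PPs (6 higher), and the apolipoprotein genes had a median of 0.16 in hILOs and 0.35 in PPs.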

How the data were processed

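The 4 hILO tables hold TPM per Ensembl gene, deposited by the authors after trimming with fastp, alignment to GRCh38 with HISAT2 (2.1.0) and quantification with StringTie. The 16 PP tables hold CPM per gene deposited by the authors without the ERCC spike-ins. The annotation release and read counter were not given in the sources used here. TPM summed to 887320 to 924887 per library and was used as listed. All CPM values were whole multiples of the value of 1 read (within 0.05 of a read), which returned the reads.

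Genotypes were compared with limma (3.58.1, R 4.3.3, trended eBayes) on log2(value + 1) over genes averaging 1 or more, separately for hILOs and PPs at 0 h, and from one fit of the 16 PP libraries at later hours. Slopes used log2(CPM + 0.1). Standard errors (SE) and adjusted *p* are from these fits over all genes. edgeR (4.0.16) and DESeq2 (1.42.0) on recovered reads, other pseudocounts, filters and scalings, a replicate block and leaving out each library were alternatives. With 2 libraries against 2, an exact two-sided permutation test cannot go below 0.33. Replicate PP libraries differed by more than read counting (chi-square per degree of freedom 4.28 to 37.8), so none of these was counted as a duplicate. TPM holds no reads for this check in hILOs. There the median absolute log2 difference between replicates, among the more abundant genes, was 0.083 in WT and 0.089 in A5-KO. Code was tested on simulated data.

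All members are named, and from every other list at most 4 called genes per stage with the largest change. Others, such as *HNF4A*, *AFP*, *AIF1*, *CSF1R*, *TYROBP* and the zero-level markers, were chosen after their values were seen. So were *FGB*, *FGA* and *AHSG* in hILOs, which all fell. The result of 1 listed gene is not reported here. The members and lists were chosen with earlier results of these data known. The main fits did not pair libraries by replicate number. Between genotypes, deviations of libraries with the same number had correlations of 0.044 in hILOs and of 0.289, -0.019, -0.113 and 0 in PPs at 0, 1, 2 and 3 h. At 0 h libraries with the same number thus deviated in part together. There the replicate block raised the calls over all genes from 218 higher and 157 lower to 365 and 266.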

Additional observations from a re-analysis of the deposited data

Results flagged for a closer look

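*APOA4* moved in opposite directions at the 2 stages, with every A5-KO library below every WT library in hILOs (log2 difference -0.63) and above in PPs at 0 h (0.42, not called). *APOC1* did the reverse, at 0.33 in hILOs and -0.28 in PPs at 0 h, neither of them called. The difference between the stages was not tested for either gene, because the tables were deposited in different units. *APOC1* was also singled out because its A5-KO difference at 3 h of Act D exceeded that at 0 h by 0.51 (SE 0.16, limma adjusted *p* = 0.035), where 18.4% of genes were called. That call was lost without the filter on low values (limma adjusted *p* = 0.12) and in 5 of the 8 fits that left out 1 library, in which the change ran from 0.39 to 0.63.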

How the results depend on the processing

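The number of members called in hILOs was 4 as reported and 3 to 4 under all alternatives, with 3 whenever a library was left out (*APOH* lost) and under median-of-ratios scaling and quantile normalization (*APOA4* lost). For PPs at 0 h it was 1, but 0 under median-of-ratios scaling, edgeR and DESeq2, and 0 to 2 with a library left out (0 without A5-KO replicate 1, 2 without A5-KO replicate 2). At 1 h it stayed at 2. At 2 h it was 1, but 2 under median-of-ratios scaling, edgeR and DESeq2, and 1 to 2 with a library left out (2 without WT replicate 2). At 3 h it was 0, but 1 under those 3 alternatives. For slopes in WT it was 0, but 1 from 0 and 3 h only, where 223 genes were called higher and 2199 lower rather than 18 and 15. For slopes in A5-KO it was 2, but 4 under median-of-ratios scaling, from 0 and 3 h only and from 0 and 1 h only, and 0 to 4 with a library left out (0 without A5-KO 0 h replicate 1, 4 without A5-KO 1 h replicate 2). For the slope difference it was 0, but 1 from 0 and 3 h only. The cause of these changes was not tested.

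Uncalled values turned sign. *APOA1* in hILOs was 0.061 under median-of-ratios scaling, 0.13 under quantile normalization and -0.041 to 0.033 with a library left out. *APOA2* in PPs at 0 h ran from -0.25 to 0.059 with a library left out. The slope difference of *APOA1* was 0.043 under median-of-ratios scaling, 0.012 from 0 and 3 h, 0.41 from 0 and 1 h and -0.093 to 0.0079 with a library left out. That of *APOA4* was 1.24 from 0 and 1 h, that of *APOB* 0.0015 under median-of-ratios scaling, and that of *APOC3* 0.075 under quantile normalization, 0.14 from 0 and 1 h and -0.18 to 0.0040 with a library left out. That of *APOA2* ran from -0.0047 to 0.090 with a library left out.

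With the replicate block the member counts were unchanged (4, 1, 2, 1, 0, 0, 2 and 0 in the order above), while all genes called went from 467 higher and 707 lower to 289 and 385 in hILOs, and from 218 and 157 to 365 and 266 in PPs at 0 h. Counts of the other lists moved too: mesenchyme markers in hILOs (2) ran from 0 to 3, hepatocyte markers in hILOs (8) from 4 to 8, lipases in hILOs (3) from 0 to 3, and receptors and transporters in PPs at 0 h (0) from 0 to 2, moving under 7 of 12 alternatives. Regulators in hILOs (1) fell to 0 under 5 of 9 alternatives. A fit that left out a library took the remaining one of its group to vary like the others. Over all genes, slopes called in A5-KO were 1013 higher and 5054 lower, but 3161 and 3670 under median-of-ratios scaling.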

Other observations

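Other apolipoprotein genes on the chromosomes of members gave further values in hILOs. *APOA5*, on chromosome 11 as *APOA4* is, was at 15.0 and 13.2 TPM (WT) against 9.76 and 7.45 TPM (A5-KO). *APOC2*, on chromosome 19 as *APOC1* is, was at 258 and 265 TPM (WT) against 310 and 341 TPM (A5-KO). Its readthrough entry *APOC4-APOC2* was at 100.0 and 101 TPM (WT) against 128 and 123 TPM (A5-KO). In PPs at 0 h *APOC2* was at or under 0.03 CPM.

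Over the 16 PP libraries, the non-member genes whose log2 levels correlated most with the mean profile of the 7 tested members, among 8920 genes averaging 10 CPM or more, were *ALDH2* (Pearson r = 0.948), *SLC39A5* (0.946), *CD63* (0.939), *GSTP1* (0.938) and *CTSD* (0.933). The members themselves ranged from 0.339 for *APOB* to 0.874 for *APOA1*. The libraries share genotypes, hours and the scaling to CPM, so these values are a description of the courses.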
